A study of Homo sapiens with 6 samples.

Results

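The genes described here code for subunits of the AP-1 transcription factor and for early growth response factors, and were listed by name: FOS, FOSB, FOSL1, FOSL2, JUN, JUNB, JUND, BATF3, EGR1 and EGR3. They were chosen with earlier results of these data known, so their counts set beside those of all genes are descriptions and not a test. All 10 were found among the 29185 genes of the deposited table. RNA came from SKOV3, an established human ovarian cancer cell line. The sh-KLF5 cells carried a pLKO.1-EGFP-Puro construct that silenced KLF5, delivered by lentivirus and followed by puromycin selection, and the sh-NC cells were their control. The sample titles call the control cells only NC. Whether these cells carried a construct or went through selection is not stated in the titles or the study methods. No second silencing construct and no rescue was among these libraries. The sample labels give the genotype of the control cells as WT and that of the others as KLF5 knockdown. Each group had 3 libraries of polyA RNA, with between 15852319 and 17543896 reads counted on genes per library. Since no label says that the libraries came from separate cultures, the p-values measure only the spread between these libraries.

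AP-1 is a dimer of basic leucine zipper (bZIP) proteins. A FOS protein pairs with a JUN protein and the pair binds a short DNA element found in the promoters of many matrix metalloproteinase and cytokine genes, whereas JUN proteins can also pair with each other. Several of these genes are immediate early genes, which are switched on within minutes after growth factors, serum or stress reach the cell, through MAP kinases and the serum response factor SRF. EGR1 and EGR3 are zinc finger factors of the same early response, and their activity is held back by the NAB corepressors. KLF5 is a zinc finger factor that binds GC-rich elements.

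KLF5 itself had 4371, 4425 and 4494 normalized counts in the control (libraries 1, 2 and 3 of sh-NC) and 1745, 1439.9 and 1436 in those of sh-KLF5, so the silenced gene matched the labels. A normalized count is a gene's read count scaled with 1 factor for each library. Of the 8 SKOV3 and ovarian carcinoma markers in the table, 4 fell after silencing by the test described below (KRT7, KRT8, KRT18 and MUC16), where 6.85% of all genes tested fell. EPCAM, ERBB2, PAX8 and KRT19 did not pass. The summed level of all 8 was 53804 to 65811 normalized counts in sh-NC and 28390 to 38849 in sh-KLF5. KRT7 and KRT8 made up most of it in both groups, so the sum says little of the other markers. Of 9 leukocyte, endothelial and fibroblast markers in the table, PTPRC, LYZ and CDH5 had at most 3 reads in each library. The summed level of all 9 was 393 to 552 normalized counts in sh-NC and 147 to 296 in sh-KLF5, and DCN, which fell, made up most of it in sh-NC. The part of these markers in the results that follow was not tested. Library 1 of sh-KLF5 stood apart from libraries 2 and 3 of its group (chi-square per degree of freedom 26.4 and 34.3 over genes, against 11.6 between those and 4.66 to 9.33 within sh-NC), and without it FOSB no longer passed (adjusted p = 0.0591 from limma) while FOSL2 did (0.0459). In bulk RNA, fewer cells of one kind and less RNA per cell cannot be told apart.

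After KLF5 silencing, 5 of the 10 genes rose (JUN, EGR1, FOSL1, JUND and FOSB), 1 fell (BATF3), and FOS, FOSL2, JUNB and EGR3 did not pass the test (limma on log2(normalized count + 1), Benjamini-Hochberg adjusted p-value under 0.05). Among all 15803 genes tested, 6.04% rose and 6.85% fell. With a fold threshold added (log2 fold change above 1 or below -1), JUN, EGR1 and FOSL1 were higher and BATF3 was lower, against 1.9% and 3.37% of all genes tested. The 3 sh-KLF5 libraries lay above the 3 sh-NC libraries without overlap for 7 genes and below them for 1, where 15.4% and 15.9% of all genes tested did so. The median log2 fold change of the 10 genes was 0.59 and that of all genes tested was -0.0023. All 10 genes passed the filter on low counts, which asks for enough reads only in as many libraries as 1 group holds. BATF3 passed it through sh-NC alone (28, 17 and 23 reads, against 4, 6 and 7 in sh-KLF5). The number that rose was 3 when sh-NC library 2 or sh-KLF5 library 2 was left out, and the number that fell was 0 without sh-NC library 1 or 3.

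**Figure D1:**
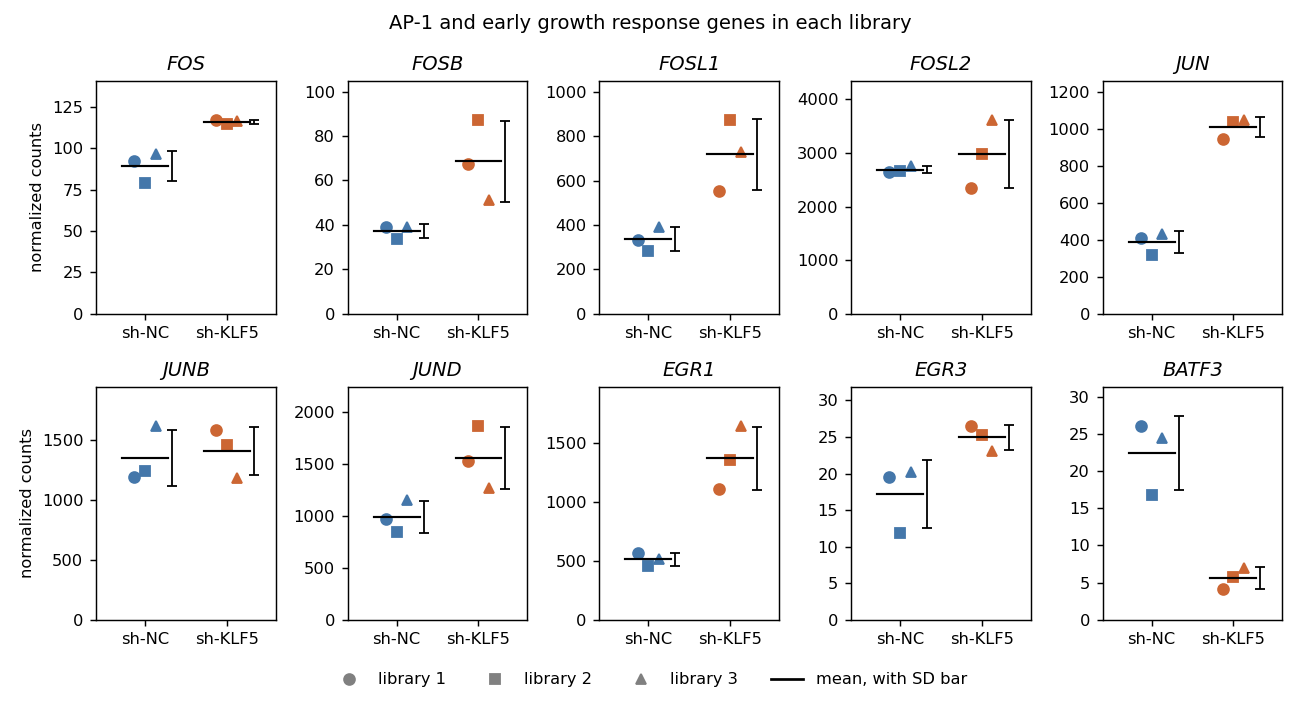
Normalized counts (y axis, from 0, a different scale in each panel) of the 10 genes in the 3 sh-NC (blue) and 3 sh-KLF5 (orange) libraries, with marker shape for the library number, a line at the mean and a bar for 1 SD. JUN, EGR1, FOSL1, JUND, FOSB, FOS and EGR3 have all orange points above all blue ones, BATF3 has them below, and FOSL2 and JUNB overlap.

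JUN rose with little spread in the silenced cells. This gene codes for c-Jun, the JUN family subunit that is itself induced by AP-1. JUN (ENSG00000177606) is an intronless gene on chromosome 1 of GRCh38 (58780788 to 58784327, - strand). It had 411, 317 and 432 normalized counts in sh-NC (libraries in the order 1, 2 and 3, as for all genes) and 946, 1035 and 1048 in sh-KLF5. All sh-KLF5 libraries stood far above the highest sh-NC library, and they varied less among themselves (coefficient of variation 5.51%) than the sh-NC libraries (15.8%). The means were 387 ± 60.9 and 1009.6 ± 55.6 (SD, n = 3), and the log2 fold change was 1.39 (SE, the standard error, 0.14 and limma adjusted p = 3.33e-06). Leaving out any 1 library kept it between 1.26 and 1.48.

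JUND, a subunit that many resting cells keep at a steady level, rose less, and JUNB did not pass the test. JUND (ENSG00000130522, chromosome 19, 18279760 to 18281622, - strand) had 968, 849 and 1159 normalized counts in sh-NC and 1535, 1869 and 1269 in sh-KLF5. The groups did not overlap, but sh-KLF5 library 3 stood only a little above sh-NC library 3. The log2 fold change was 0.64 (SE 0.15, limma adjusted p = 0.0083), and it no longer passed without sh-NC library 2 (0.54, adjusted p = 0.0745) or without sh-KLF5 library 2 (0.50, adjusted p = 0.0571). JUNB (ENSG00000171223, chromosome 19, 12791496 to 12793315, + strand), which is often a weaker activator than c-Jun, had 1189.9, 1241 and 1614 normalized counts in sh-NC and 1579, 1453 and 1184 in sh-KLF5. The highest and the lowest of these 6 values were the third library of each group, and the ranges overlapped almost fully. Its log2 fold change was 0.06 with a 95% interval from -0.24 to 0.36 (limma adjusted p = 0.824), and its sign turned without sh-NC library 1 (-0.020) or sh-KLF5 library 1 (-0.026). On the opposite strand, HOOK2 shares 14.2% of the exonic bases of JUNB. It had 209 to 367 reads, and whether counting used strand is not given in the sources used here.

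The JUN and JUND promoters are shown because their sequence holds elements related to that of AP-1. Of the 10 genes, 7 had an entry in the RefSeq promoter table (GRCh38.p14), and the 250 bases before each start were searched on both strands. The AP-1 element TGANTCA was in none of the 7, and in 6.57% of 35116 promoters of the same length. The related 8-base forms TGACATCA and TGACGTCA, neither of which contains TGANTCA, were each in 1 of the 7, against 2.37% and 1.65% of all promoters. The GC-rich element GGGNGGG was in 5 of the 7 and in 51.6% of all promoters. The promoter of FOSB, which also rose, holds GGGNGGG but neither 8-base form and is not shown, and FOSL1 had no entry. In the JUN promoter, the capitals mark TGACATCA, an AP-1-like element that lies 67 to 60 bases before the start. In the JUND promoter, they mark TGACGTCA, the cyclic AMP response element. A match is a description of the letters and not of binding.

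JUN promoter (chr1:58784048-58784297, - strand): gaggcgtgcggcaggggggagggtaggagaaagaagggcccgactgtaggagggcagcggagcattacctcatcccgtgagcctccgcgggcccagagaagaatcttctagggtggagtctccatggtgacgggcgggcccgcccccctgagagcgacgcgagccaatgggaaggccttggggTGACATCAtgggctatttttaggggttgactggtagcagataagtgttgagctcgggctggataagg

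JUND promoter (chr19:18281623-18281872, - strand): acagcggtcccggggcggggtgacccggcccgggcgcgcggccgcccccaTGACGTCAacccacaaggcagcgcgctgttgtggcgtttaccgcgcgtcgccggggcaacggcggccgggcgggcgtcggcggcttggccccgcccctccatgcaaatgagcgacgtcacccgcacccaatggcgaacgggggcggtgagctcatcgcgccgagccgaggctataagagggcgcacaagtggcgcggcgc

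Within the FOS family, FOSL1 rose, FOSB rose near the limit of the test, and FOS and FOSL2 did not pass it. FOSL1 codes for FRA-1, the FOS protein known from invasive carcinoma cells. FOSL1 (ENSG00000175592, chromosome 11, 65892049 to 65900573, - strand) had 331, 283 and 390.5 normalized counts in sh-NC and 552, 874 and 729 in sh-KLF5. Every sh-KLF5 library was above every sh-NC library, with sh-KLF5 library 1 the lowest of its group. The log2 fold change was 1.09 (SE 0.17, limma adjusted p = 0.000314), and it was 0.97 without sh-NC library 2 and 0.93 without sh-KLF5 library 2, so that FOSL1 then missed the fold threshold.

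FOSB, a FOS protein that is usually near silent without stimulation, was a weakly expressed gene. FOSB (ENSG00000125740, chromosome 19, 45467995 to 45475179, + strand) had 39.1, 33.5 and 39.3 normalized counts in sh-NC and 67.3, 87.3 and 51.1 in sh-KLF5. The groups did not overlap, and the spread within sh-KLF5 was wide (coefficient of variation 26.4%, against 8.80% in sh-NC). Its log2 fold change was 0.83 (SE 0.26) with an adjusted p of 0.0494 from limma. With TMM factors the adjusted p from limma was 0.0512, with library size as the only factor 0.0582, with a pseudocount of 0.1 0.0508 and without a filter 0.0509. With 1 library left out, FOSB passed only without sh-KLF5 library 3 (0.0244), and the adjusted p reached 0.194 without sh-KLF5 library 2.

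FOS, the classical partner of c-Jun, showed little spread. FOS (ENSG00000170345, chromosome 14, 75278774 to 75282230, + strand) had 92.2, 78.8 and 96.6 normalized counts in sh-NC and 117, 114 and 116 in sh-KLF5. The sh-KLF5 libraries all lay above the sh-NC libraries (two-sided exact permutation p = 0.1, the smallest that 3 libraries against 3 allow), but the log2 fold change of 0.38 (95% interval -0.023 to 0.78, limma adjusted p = 0.221) did not pass. FOSL2 codes for FRA-2 and was the FOS family gene with the most reads. FOSL2 (ENSG00000075426, chromosome 2, 28392448 to 28417312, + strand) had 2641, 2656 and 2761 normalized counts in sh-NC and 2352, 2987 and 3619.6 in sh-KLF5. The sh-NC libraries were nearly equal, whereas the sh-KLF5 libraries lay on both sides of them. Its log2 fold change was 0.13 (95% interval -0.16 to 0.43, limma adjusted p = 0.6). This value rested on single libraries, since it was 0.29 without sh-KLF5 library 1 (adjusted p = 0.0459) and -0.019 without sh-KLF5 library 3.

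EGR1 had the highest log2 fold change of the 10 genes, close to that of JUN. EGR1 is a factor of the early growth response that is induced by serum through SRF. EGR1 (ENSG00000120738, chromosome 5, 138465490 to 138469315, + strand) had 565, 454 and 515 normalized counts in sh-NC and 1112, 1351 and 1643 in sh-KLF5. The lowest sh-KLF5 library lay far above the highest sh-NC library. The means were 511 ± 55.5 and 1369 ± 266 (SD, n = 3), with a log2 fold change of 1.41 (SE 0.15, limma adjusted p = 5.99e-06) that stayed between 1.27 and 1.55 with any 1 library left out. EGR3, which EGR1 and calcium signals can induce, had few reads. EGR3 (ENSG00000179388, chromosome 8, 22687659 to 22693302, - strand) had 21, 12 and 19 reads in sh-NC and 26, 26 and 23 in sh-KLF5. The groups did not overlap, yet with so few reads the log2 fold change of 0.55 had a 95% interval from -0.21 to 1.31 (limma adjusted p = 0.365).

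The EGR1 promoter is shown because the CArG box, the element that SRF binds, is rare in promoters (1.16% of 35116 promoters, searched over 250 bases as above). The EGR1 promoter holds 2 of them, at 105 to 96 and 83 to 74 bases before the start. None of the other 6 promoters holds one within these 250 bases. Sequence farther upstream was not searched, so boxes there would be missed in each of these genes. It also holds the EGR element GCGNGGGCG once, which is in 8.41% of all promoters. The capitals mark these 3 matches.

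EGR1 promoter (chr5:138465229-138465478, + strand): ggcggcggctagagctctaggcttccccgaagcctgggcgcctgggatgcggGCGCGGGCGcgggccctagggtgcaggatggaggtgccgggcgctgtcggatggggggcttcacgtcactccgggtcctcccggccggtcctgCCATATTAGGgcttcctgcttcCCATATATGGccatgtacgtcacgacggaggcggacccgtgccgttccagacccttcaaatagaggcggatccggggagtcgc

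BATF3 was the only one of the 10 genes that fell. It codes for a small bZIP protein that pairs with JUN proteins and lacks a region that activates transcription, and it is best known from dendritic cells. BATF3 (ENSG00000123685, chromosome 1, 212686418 to 212699985, - strand) had 28, 17 and 23 reads in sh-NC and 4, 6 and 7 in sh-KLF5. No sh-KLF5 library reached even the lowest sh-NC library, although all counts were low. The log2 fold change was -1.82 (SE 0.45, 95% interval -2.77 to -0.87, limma adjusted p = 0.0121), and over all alternatives it ranged from -1.36 with a pseudocount of 5 to -2.01 without sh-NC library 2. Without sh-NC library 1 or 3, BATF3 no longer passed the test (adjusted p = 0.086 and 0.0698). A filter that asks for 10 reads in each library left it untested.

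**Figure D2:**
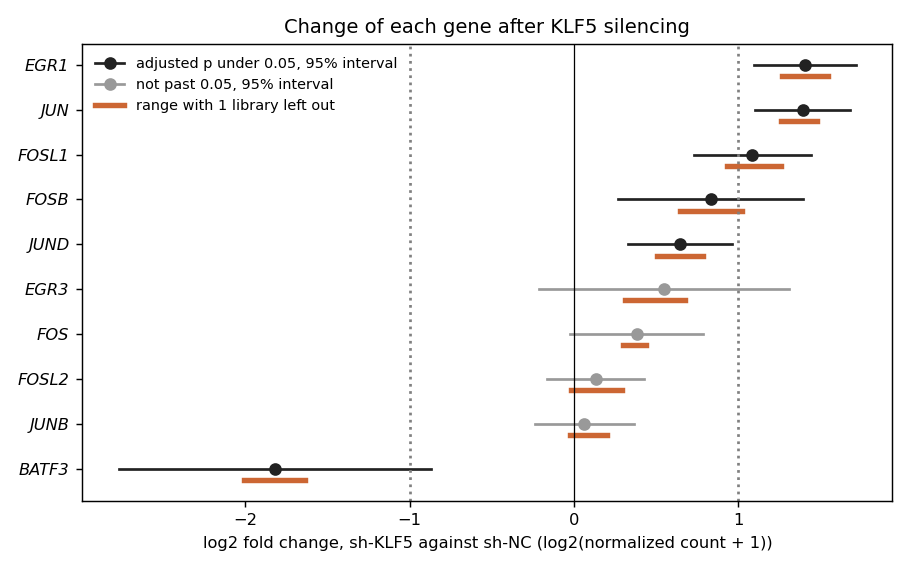
Log2 fold change of sh-KLF5 against sh-NC (x axis) for each of the 10 genes (y axis), as a point with its 95% interval, in black where the adjusted p-value is under 0.05 and in gray where it is not. The orange bars give the range with any 1 of the 6 libraries removed, dotted lines stand at -1 and 1, and only FOSL2 and JUNB have an orange bar on both sides of 0.

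Levels of different genes were compared per length, in FPKM, which divides the reads by the exonic length of the gene and by library depth. The order depends on that choice, since the genes differ in how much of their length is coding (FOSL2 has 7157 exonic and 1056 coding bases, JUNB 1820 and 1041). By exonic length, in sh-NC, JUNB (44.8 ± 6.88 FPKM, SD, n = 3) and JUND (32.2 ± 4.54) were the most abundant, followed by FOSL2 (22.8 ± 0.171), FOSL1 (10.7 ± 1.56), EGR1 (9.88 ± 1.09) and JUN (6.61 ± 0.977). The ranges of FOSL1 and EGR1 overlapped in sh-NC, whereas those of JUNB and JUND, and of EGR1 and JUN, did not. FOS stood at 1.67 ± 0.155 FPKM, and BATF3, FOSB and EGR3 were all under 1 FPKM. In sh-KLF5, JUND (51.1 ± 11.2 FPKM) and JUNB (47.2 ± 7.71) overlapped, EGR1 (26.5 ± 4.63), FOSL2 (25.4 ± 4.91) and FOSL1 (23.2 ± 5.51) overlapped with each other, and JUN reached 17.4 ± 0.953 FPKM, with a range that met the lower end of that of FOSL1. BATF3 moved from the eighth to the last place. The scale by coding length divided the reads of all exons, noncoding parts included, by the coding bases only. It therefore raises genes with much noncoding exonic length, FOSL2 above all, and is not a level over the coding sequence. By coding length FOSL2 stood first in both groups (154 ± 1.16 in sh-NC and 172 ± 33.3 in sh-KLF5), above JUNB (78.4 ± 12.0 and 82.5 ± 13.5) and JUND (56.3 ± 7.93 and 89.3 ± 19.6). On that scale FOSL2 and FOSL1 (24.9 ± 3.62 and 53.9 ± 12.8) did not overlap in either group, and JUN (23.6 ± 3.48 and 62.0 ± 3.40) came before EGR1 (19.0 ± 2.09 and 51.1 ± 8.92), with overlapping ranges.

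The make-up of both families shifted with the genes that rose. FOSL1 was 27.2% to 32.9% of the summed FOS family FPKM by exonic length in the sh-NC libraries and 41.2% to 49.7% in the sh-KLF5 libraries, while FOSL2 went from 61.3% to 67.3% down to 44.8% to 54.0%. FOS and FOSB were small parts, with means of 4.69% and 1.14% in sh-NC and 4.34% and 1.49% in sh-KLF5. In the JUN family, JUN was 7.30% to 8.99% in sh-NC and 13.6% to 18.2% in sh-KLF5, JUNB was 50.7% to 55.5% and 38.1% to 44.3%, and JUND was 37.2% to 40.3% and 41.9% to 47.9%. By coding length, FOSL1 made up a mean of 13.4% of its family in sh-NC and 22.9% in sh-KLF5, and JUN 14.9% and 26.8%. The shares of FOSL1, FOSL2, JUN and JUNB did not overlap between the groups by either length, whereas those of JUND overlapped by coding length (34.5% to 36.8% and 35.2% to 41.8%). The mean summed FPKM in sh-KLF5 was 1.45 times that in sh-NC for the FOS family, 1.38 times for the JUN family and 2.66 times for the EGR family. These sums are descriptions and carry no test. The JUN family sum of sh-KLF5 library 3 (96.2) lay under that of sh-NC library 3 (96.9).

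**Figure D3:**
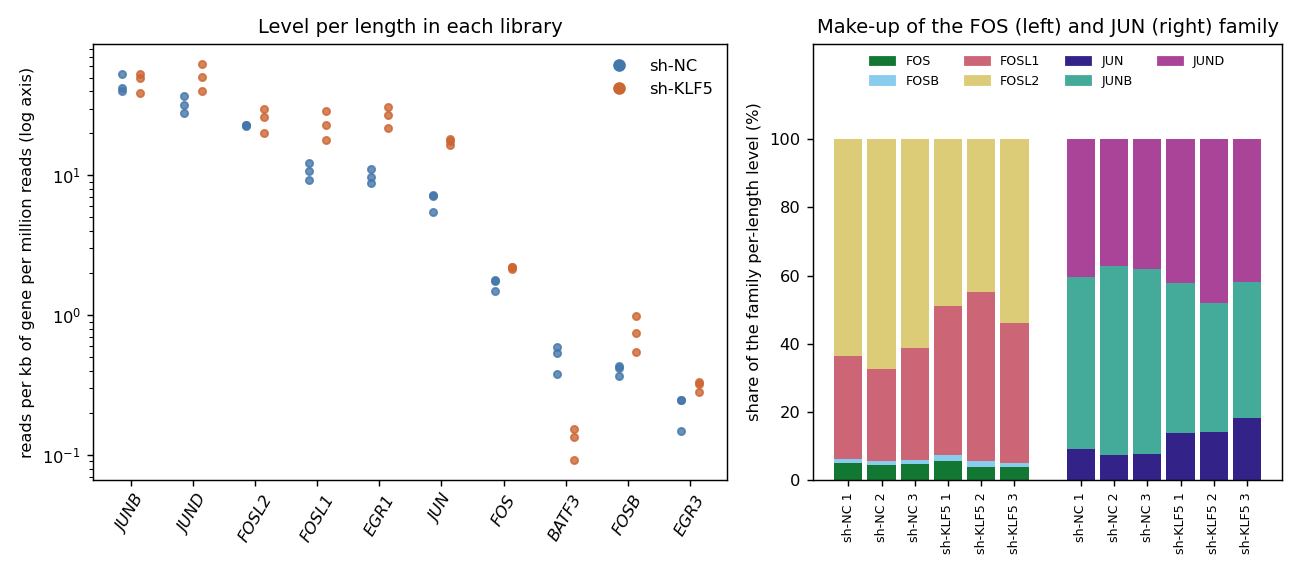
The left panel gives the level of each of the 10 genes in FPKM by exonic length (log axis), with 1 point per library, sh-NC in blue and sh-KLF5 in orange. The right panel gives the share of each gene in the summed level of its family (%, by exonic length) in every library, where FOSL1 takes 41.2% or more of the FOS family only in sh-KLF5 libraries and JUN takes 13.6% or more of the JUN family only there.

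The other genes of the pathway were counted from lists, which were also chosen with earlier results of these data known. Of 11 other AP-1 bZIP genes tested, 1 rose, 2 fell and 8 did not pass the test (median log2 fold change 0.17), where 6.04% of all genes tested rose and 6.85% fell. CREB5, a bZIP protein of the CREB and ATF group that can pair with c-Jun, fell from 166, 130 and 106 reads to 12, 12 and 4 (log2 fold change -3.80, limma adjusted p = 2.61e-06). JDP2, a repressor that pairs with JUN proteins, fell by 0.69 on the log2 scale (limma adjusted p = 0.00917), and this no longer passed without sh-NC library 2 (0.0533) or 3 (0.0641). In all, 3 bZIP partners of JUN proteins were lower in sh-KLF5 (BATF3, CREB5 and JDP2), a grouping made after their values were seen. ATF3, a stress-induced partner, did not pass.

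Other early response genes moved in both directions. Of 16 tested, 7 rose, 2 fell and 7 did not pass (median log2 fold change 0.35), against 6.04% and 6.85% of all genes. IER3 and IER5, immediate early genes of growth and stress, rose by 0.94 and 0.85 on the log2 scale (limma adjusted p = 0.00194 and 0.000271). IER3 had 761, 639 and 785 normalized counts in sh-NC and 1724, 1607 and 968 in sh-KLF5, so that sh-KLF5 library 3 was again the lowest of its group, as it was for JUND and FOSB. KLF2 rose by 0.73 (limma adjusted p = 0.00394), and CTGF rose by 0.64 (adjusted p = 0.0312), the latter lost when any 1 of 4 libraries was left out (sh-NC 1, 2 or 3, or sh-KLF5 1, with adjusted p up to 0.152). The orphan nuclear receptors NR4A1 and NR4A2, which share the rapid induction of EGR1, went the other way. NR4A1 had 661, 727 and 679 normalized counts in sh-NC and 275, 309 and 248 in sh-KLF5 (log2 fold change -1.32, limma adjusted p = 4.61e-06). NR4A2 had a log2 fold change of -1.43 (limma adjusted p = 0.000138). The number of the list that rose was 3 without sh-NC library 2 and 4 without sh-NC library 1 or 3.

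Upstream genes were called about as often as all genes, of which 6.04% rose and 6.85% fell. Of the 8 genes for SRF, its ternary complex partners and the NAB corepressors, none rose and 1 fell by limma, while edgeR and DESeq2 each called 1 higher. An unadjusted limma p under 0.05 was found for 3 of them, and for 4134 of all 15803 genes tested. The gene that fell was NAB2, the corepressor of EGR1, with 1049, 1038 and 1088 normalized counts in sh-NC and 532, 792 and 851 in sh-KLF5. Its log2 fold change of -0.57 (limma adjusted p = 0.0203) did not pass when any 1 sh-NC library was left out (0.0593, 0.0723 and 0.0964 without library 1, 2 and 3). Of 15 MAP kinase pathway genes tested, 2 rose, MAP3K1 (log2 fold change 0.53, limma adjusted p = 0.00934) and MAPK7, the gene of ERK5 (0.42, adjusted p = 0.0397), and neither passed without sh-NC library 2 (0.0516 and 0.122) or 3 (0.0606 and 0.0876). The limma adjusted p of MAPK7 reached 0.182 with 1 library left out. The kinases that phosphorylate c-Jun, MAPK8 and MAPK9, did not pass, and kinase activity was not measured. MAPK10 had too few reads to be tested.

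Genes reported as AP-1 targets included the gene with the highest limma log2 fold change of the 15803 tested, MMP3, and others that fell or did not pass. Of 18 tested, 10 rose, 1 fell and 7 did not pass (median log2 fold change 0.62, against -0.0023 for all genes, of which 6.04% rose and 6.85% fell). MMP3, the matrix metalloproteinase stromelysin-1, had 102, 89 and 70 reads in sh-NC and 822, 896 and 1333 in sh-KLF5 (log2 fold change 3.52, limma adjusted p = 2.99e-09). CCL2, a monocyte chemokine, went from 10, 11 and 5 reads to 71, 71 and 44 (log2 fold change 2.74, limma adjusted p = 8.56e-05). LIF, a cytokine of the IL6 family, rose by 1.85 on the log2 scale and CXCL8, a neutrophil chemokine, by 1.52 (limma adjusted p = 1.2e-07 and 0.000147). None of these 4 genes overlapped between the groups, where 15.4% of all genes tested were higher without overlap. CCL2, LIF and CXCL8 were named because they passed the fold threshold, and MMP3 was chosen with earlier results of these data known. The separation of these 4 genes therefore carries no further information. Of the 10 rises, 5 were past the fold threshold, against 1.9% of all genes tested.

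The metalloproteinase genes of the same cluster on chromosome 11 did not move together. MMP10, the paralog of MMP3 known as stromelysin-2, had 68, 36 and 40 reads in sh-NC and 4, 13 and 16 in sh-KLF5 (log2 fold change -2.14, limma adjusted p = 0.00358). MMP1, the interstitial collagenase, had 119, 189 and 208 normalized counts in sh-NC and 96.8, 79.6 and 130.3 in sh-KLF5. The highest sh-KLF5 library lay above the lowest sh-NC library, and the log2 fold change was -0.74 (limma adjusted p = 0.0505, 0.0412 with edgeR, 0.0234 with DESeq2, 0.0137 without sh-NC library 1, 0.0185 without sh-KLF5 library 3 and 0.0603 to 0.23 without any other library). MMP13 had 0 reads in each sh-NC library, a count that leaves room for up to 3, and 4, 3 and 6 reads in sh-KLF5, too few for the filter, so it was not tested. WTAPP1, on the opposite strand, shares 7.61% of the exonic bases of MMP1 and 1.56% of those of MMP3 and had 0 to 9 reads. MMP3 rose while MMP10 fell, and both directions were the same with any 1 library left out (3.31 to 3.65 and -2.49 to -1.62).

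Among the targets named here, CXCL8, which rose, and MMP10, which fell, had an entry in the promoter table. Both promoters hold 1 match of TGANTCA in the 250 bases before the start, shown in capitals, at 137 to 131 bases before the start in CXCL8 and 67 to 61 bases in MMP10.

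CXCL8 promoter (chr4:73740319-73740568, + strand): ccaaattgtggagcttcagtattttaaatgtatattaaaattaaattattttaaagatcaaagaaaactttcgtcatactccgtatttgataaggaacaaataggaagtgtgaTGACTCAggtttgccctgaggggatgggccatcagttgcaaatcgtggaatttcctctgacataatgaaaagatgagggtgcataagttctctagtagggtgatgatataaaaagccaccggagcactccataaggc

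MMP10 promoter (chr11:102780629-102780878, - strand): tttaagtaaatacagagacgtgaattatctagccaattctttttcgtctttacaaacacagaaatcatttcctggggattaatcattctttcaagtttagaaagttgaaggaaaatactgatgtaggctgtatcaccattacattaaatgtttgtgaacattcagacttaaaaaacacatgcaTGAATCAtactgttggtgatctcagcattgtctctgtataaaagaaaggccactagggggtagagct

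Heat shock genes, which code for chaperones induced by stress, were counted as a list beside the early response genes. Of 11 heat shock genes tested, limma called 0, where 6.04% of all genes tested rose and 6.85% fell, and edgeR and DESeq2 called 0 as well. An unadjusted limma p under 0.05 was found for 4 of them, all higher in sh-KLF5 (HSPA6, HSPB1, BAG3 and HSPE1), and for 4134 of all 15803 genes tested. Their summed level was 114800.0 to 124706 normalized counts in sh-NC and 116093 to 140009 in sh-KLF5, so the ranges overlapped. HSP90AA1 and HSPA8 made up most of that sum, which says little of the other genes. HSPA6 had the largest difference of the list with few reads (log2 fold change 1.58, limma adjusted p = 0.0744). HSPA1A and HSPA1B are near-identical copies whose reads may have been split by the counting, and neither passed.

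**Figure D4:**
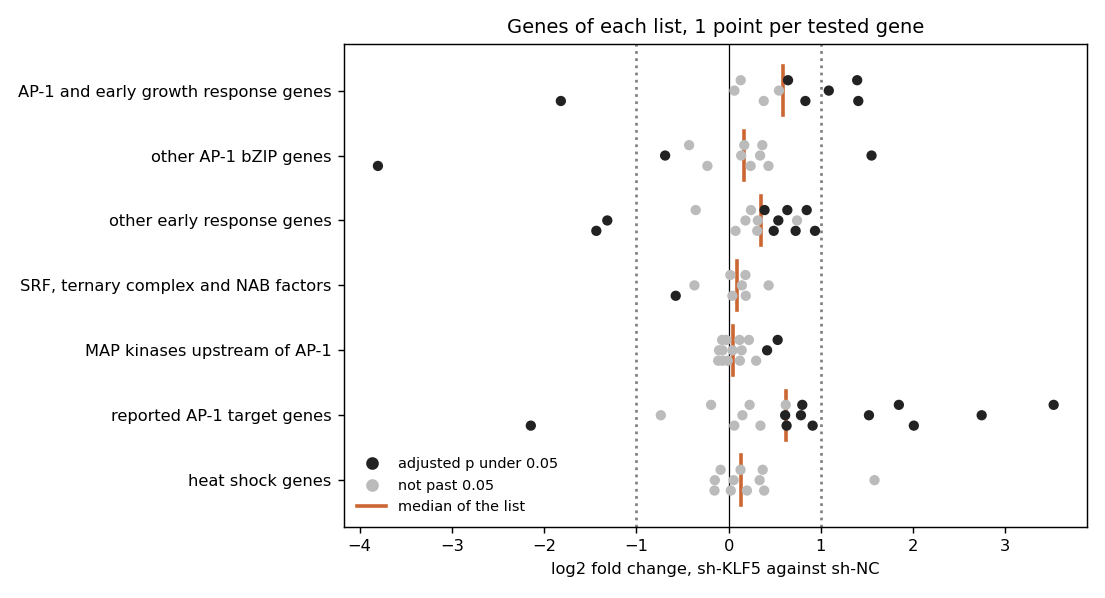
Log2 fold change of sh-KLF5 against sh-NC (x axis) for every tested gene of the 7 lists (y axis), black where the adjusted p-value is under 0.05 and gray where it is not, with an orange line at the median of the list and dotted lines at -1 and 1. The medians lie at 0.59 for the AP-1 and early growth response genes and 0.62 for the reported AP-1 targets, and between 0.043 and 0.35 for the other 5 lists.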

How the data were processed

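RNA was sequenced from 3 sh-NC and 3 sh-KLF5 libraries of SKOV3 cells. The authors deposited 1 table with a normalized signal per gene and library, which is reads scaled with 1 factor for each library. Per the submitters' processing notes, hg38, HISAT2 2.0.5, featureCounts 1.5.0-p3 and DESeq2 1.20.0 were used, with no role given. The deposited group means, log2 fold change and p-value columns hold the authors' own comparison and were not used. To recover the reads, the smallest nonzero value of a library was taken as 1 read, and 100% of values were whole multiples of it within 1e-06. In sh-KLF5 library 3, 1 read was worth close to 1 normalized count. Depth was 15852319 to 17543896 reads per library, and 3 reads, the limit a count of 0 allows, were 2.79 to 3.18 normalized counts (counting error only).

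The design named limma for normalized values: limma 3.58.1 (R 4.3.3), with a mean trend and the robust option, fitted log2(normalized count + 1) over the 15803 genes kept by filterByExpr of edgeR 4.0.16 (minimum count 10), with Benjamini-Hochberg adjustment over all of them. Fold changes on this scale understate the change of genes with few reads. Like BATF3, the genes CREB5 and MMP10 passed the filter on low counts through sh-NC, and CCL2 passed it through sh-KLF5. Alternatives were edgeR and DESeq2 1.42.0 on the recovered reads, other factors, pseudocounts and filters, a replicate block, and leaving out each library. The scripts were tested on simulated data. Exact permutation tests were two-sided. All gene coordinates of the table are those of GENCODE release 29 (100%), and its gene length was used for FPKM. Promoters came from a RefSeq table (GRCh38.p14), and motifs were searched after the values were known. Python 3.11.15 and matplotlib 3.10.9 made the figures.

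The genes and lists were chosen with earlier results of these data known. Named are the 10 genes, KLF5, MMP1, MMP3 and MMP10 and, per list, all genes past the fold threshold and, where these were under 6, further genes past adjusted p 0.05 by size of the change up to 6. Members of marker and heat shock lists and genes given without a test result are named besides. Some genes that this rule names are not reported here. Within groups, libraries differed beyond sampling noise (chi-square per degree of freedom 4.66 to 34.3), which does not tell separate cultures from repeated preparations of 1 culture.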

Additional observations from a re-analysis of the deposited data

How the results depend on the processing

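The rises of JUN, EGR1 and FOSL1 and the fall of KLF5 passed the test under all 15 alternatives run. Without 1 library, the number of the 10 genes that rose ranged from 3 to 5 and the number that fell from 0 to 1, also past the fold threshold (0 to 1). The other bZIP genes ranged from 1 to 2 higher and 1 to 3 lower, the other early response genes from 3 to 7 higher, the SRF and NAB list from 0 to 2 in each direction, the MAP kinase list from 0 to 2 higher, the AP-1 targets from 1 to 2 lower and the heat shock list from 0 to 2 higher. Under the filter of 10 reads in each library, 0 of the 10 genes were lower, also past the fold threshold, as BATF3 is then not tested by construction. That filter left 1 bZIP gene and 0 AP-1 targets lower, since CREB5 and MMP10 are not tested under it either. The SRF and NAB list had 1 gene higher with edgeR, with DESeq2, without a filter and with the replicate block. The AP-1 targets had 2 lower with edgeR, with DESeq2, with a pseudocount of 5 and without a filter. Without a filter, 1 MAP kinase gene and 1 heat shock gene were higher. FOSL2 turned to -0.019 without sh-KLF5 library 3 (0.29 at most, without library 1), and JUNB to -0.020 and -0.026 without sh-NC library 1 and sh-KLF5 library 1 (0.20 at most, without sh-NC library 3). The causes were not tested.

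For libraries with equal replicate numbers, the deviations from the mean of their group correlated at 0.13, 0.0068 and 0.11. Libraries with unequal numbers were not compared, so these values cannot tell whether the libraries were paired. With the replicate block, the SRF and NAB list had 1 gene higher and 2 lower, and the other bZIP genes had 3 lower. The AP-1 targets then had 12 higher and 2 lower and the heat shock list 2 higher, and the calls of the 10 genes stayed as they were. The ratio of the summed FPKM, sh-KLF5 to sh-NC, was 1.27, 1.48 and 2.63 for the FOS, JUN and EGR families with coding length in place of gene length, and the order of the genes and their shares changed with it. At these depths the 12 to 28 reads of EGR3 and of BATF3 in sh-NC limit what can be said of them.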
